A study of Caenorhabditis elegans with 43 samples.

Results

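*argk-1* encodes an arginine kinase of the worm *Caenorhabditis elegans*, and its mRNA was followed in whole worms of 8 genotypes. It is 1 of the 13837 genes in the deposited table of filtered, normalized expression values, and it was chosen by its measured values, since its mRNA was much lower in *nuo-6* mutants than in wild-type (WT) worms. The difference between those 2 groups is therefore given as a description, with no test. The study examined how ATFS-1, the transcription factor of the mitochondrial unfolded protein response, and HIF-1, the hypoxia-inducible transcription factor, bear on worms with impaired mitochondria. All 43 libraries were made from prefertile young adults, and all mutations were present from birth. The mutant groups were *nuo-6* (6 libraries, a mutation in a subunit of complex I of the respiratory chain), *nuo-6;atfs-1* (3), *atfs-1(gk3094)* (6, a deletion), *atfs-1(et15)* (5) and *atfs-1(et17)* (6), *nuo-6;hif-1* (2) and *hif-1* (3), and they were compared with 12 WT libraries. The *et15* and *et17* alleles change the mitochondrial targeting sequence of ATFS-1 and are known as gain-of-function alleles. No library was treated with a drug or with RNAi.

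Arginine kinase moves a phosphate group reversibly between ATP and arginine. The product, phosphoarginine, is a store of high-energy phosphate that can refill ATP quickly, and the enzyme is the invertebrate counterpart of the creatine kinase of vertebrate muscle and brain. In *C. elegans*, ARGK-1 is known as a protein that is abundant in long-lived mutants lacking the S6 kinase RSKS-1, and raising it has been tied to long life through AMP-activated protein kinase, the sensor of a low energy charge. The gene (WBGene00009706) lies on chromosome V of WBcel235, from 16103894 to 16105952 on the forward strand. The annotation gives it 1 transcript of 4 exons with 1213 exonic bases, a 5′ UTR of 41 bases, a 3′ UTR of 53 bases and no overlapping gene, so the values below are reads of its exons as a whole.

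Values are normalized counts scaled to library size (CPM), and differences are on the scale of log2(normalized CPM + 0.5), which understates changes of genes with few reads. Libraries held 21466920 to 48493377 counted reads (median 35067190), and *argk-1* took between 5 and 8086 of them. The targeted genes followed the labels. *atfs-1* averaged 27.2 ± 1.83 CPM in *nuo-6;atfs-1* worms (SD, n = 3) and 25.5 ± 0.937 and 26.6 ± 3.22 in the batch 1 and batch 3 *atfs-1(gk3094)* libraries (n = 3 each), against 68.2 ± 10.05 in WT worms (n = 12). *hif-1* averaged 39.2 ± 5.94 CPM in *nuo-6;hif-1* worms (n = 2) and 26.4 ± 7.12 in *hif-1* worms (n = 3), against 206 ± 14.4 in the WT worms of their batch (n = 3). The *nuo-6* allele leaves the transcript in place and could not be checked in this way. The labels of the *nuo-6;atfs-1* libraries give a code in place of a genotype, and those of the deletion libraries name no allele, so both groups rest on a reading of the labels.

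Some properties of the libraries bear on all results. The libraries were sequenced in 3 batches. Batch 1 held both gain-of-function alleles, all worms lacking *hif-1*, 3 *atfs-1(gk3094)* and 3 WT libraries, batch 2 held *nuo-6* and 6 WT libraries, and batch 3 held *nuo-6;atfs-1*, 3 *atfs-1(gk3094)* and 3 WT libraries. Each batch 1 *atfs-1(gk3094)* library was closer to 1 particular batch 3 library of the same strain than any other pair among the 903 pairs was. The median chi-square of their gene counts was 1.03, 1.03 and 1.49, where counting error alone gives 0.455 and libraries of 1 group and batch gave 1.90 to 23.9. Since these 3 libraries tie batches 1 and 3 together in a fit with batch as a term, each fitted difference is given with all 43 libraries and again without them (n = 40), where it equals the difference within the groups' own batch. Libraries also differed in markers of maturity. The summed level of 10 molting genes was 2007 to 2443 CPM in the *nuo-6;hif-1* group and 948 to 3816 CPM in the *atfs-1(et15)* group, against 97.8 to 607 in WT libraries of that batch. The summed level of the 6 yolk protein genes was 2005 to 8199 CPM in *nuo-6;hif-1* libraries, against 27022 to 76683 in WT libraries.

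In WT worms the level of *argk-1* differed between batches and, in batch 2, also widely between libraries. The 3 WT libraries of batch 1 had 32.5, 29.8 and 14.7 CPM. The 6 WT libraries of batch 2 had 188, 58.9, 195, 345, 193 and 22.2 CPM. The 3 WT libraries of batch 3 had 1.69, 2.13 and 2.73 CPM. No 2 batches overlapped except that the lowest WT library of batch 2, at 22.2 CPM, lay among those of batch 1. The highest WT library held 204 times the normalized level of the lowest. Over the 12 WT libraries the SD of the log2 level was 2.58, the 4th largest of 13837 genes, where the median gene had 0.34. Within batch 2 alone, 6 libraries of 1 genotype spanned 15.5-fold, and the SD of 1.45 was the 38th largest. WT worms of batch 3 were lower than WT worms of batch 1 by a log2 difference of -3.23 ± 0.61 (SE, limma, adjusted p = 0.000445), in a comparison in which 24.6% of all genes were called at an adjusted p under 0.05. Markers of maturity varied within batch 2 as well. Replicate 7, with the highest *argk-1* level, also had the highest summed molting genes of the 12 WT libraries, 3651 CPM. Replicates 8 and 9, with 193 and 22.2 CPM of *argk-1*, had nearly equal molting levels, 531 and 527 CPM. The part of maturity in this spread was not tested. The WT libraries of batch 2 entered the choice of the gene, so their distance from the other batches has no test.

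**Figure D1:**
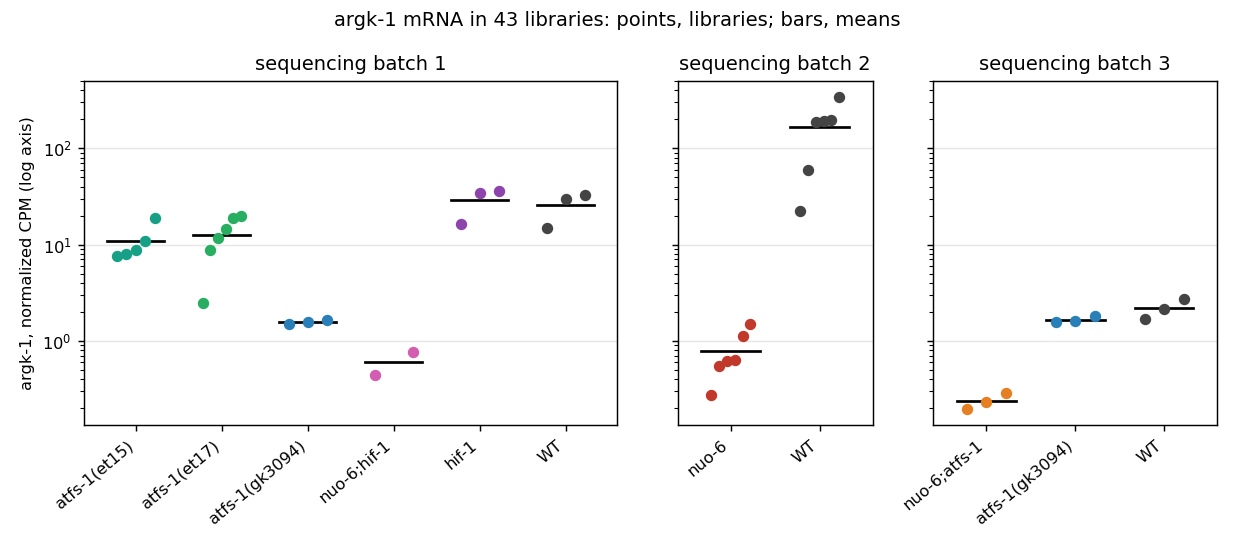
Normalized CPM of *argk-1* (log axis) in each of the 43 libraries, by genotype and sequencing batch, with WT on the right of each panel. Points are libraries and bars are means. WT libraries sit between 14.7 and 32.5 CPM in batch 1, between 22.2 and 345 in batch 2 and between 1.69 and 2.73 in batch 3, and the *nuo-6*, *nuo-6;hif-1* and *nuo-6;atfs-1* libraries lie below all WT libraries of their batch.

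The plot of the level by library shows that every library carrying the *nuo-6* mutation was lower than every WT library of its batch. The 6 *nuo-6* libraries had 0.637, 0.543, 0.275, 1.51, 1.12 and 0.622 CPM. The 6 WT libraries of the same batch are given above and lay between 22.2 and 345 CPM. The groups did not overlap, and the mean of 0.784 ± 0.447 CPM in *nuo-6* worms was 213-fold lower than the 167 ± 115 CPM in WT worms (SD, n = 6 each). The fitted difference was -6.64 ± 0.50 (SE) on the log2 scale. It rests on 111 reads in all *nuo-6* libraries together (exact 95% Poisson interval 91.3 to 134, counting error only), against 24659 reads in the WT libraries. Since the values come from whole worms, fewer cells that express the gene and less mRNA in each cell cannot be told apart, here or in the groups below.

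The *nuo-6* mutation was also measured in a background without *hif-1*. The 2 *nuo-6;hif-1* libraries had 0.445 and 0.765 CPM, against 16.3, 36.2 and 34.4 CPM in *hif-1* libraries and 32.5, 29.8 and 14.7 CPM in WT libraries. Both *nuo-6;hif-1* libraries were far below the lowest library of either other group. In limma's fit *argk-1* was lower in *nuo-6;hif-1* worms than in WT worms by a log2 difference of -3.68 ± 0.75 (SE, adjusted p = 0.000125), in a comparison in which 61.1% of all genes were called. Without the batch 1 *atfs-1(gk3094)* libraries the difference was -4.50 ± 0.70 (limma, adjusted p = 8.5e-06, 54.4% of all genes called). Against *hif-1* worms, which share all but the *nuo-6* mutation, the difference was -4.67 ± 0.80 (limma, adjusted p = 3.0e-05) and 50.7% of all genes were called (50.5% without those libraries). The mean level was 47.9-fold lower in *nuo-6;hif-1* worms than in *hif-1* worms. The *nuo-6;hif-1* libraries are those with the high molting and low yolk levels given above, and the part of maturity in the result was not tested. With an index of these maturity markers as a covariate, the difference from WT worms was -4.20 (limma, adjusted p = 0.00762). The lowest index of a *nuo-6;hif-1* library was 12.7, whereas no WT library of batch 1 exceeded 0.89. Index and genotype were thus poorly separated in this comparison, and the value of -4.20 cannot set maturity apart from genotype.

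Loss of *hif-1* alone left *argk-1* within the WT range or slightly above it. The *hif-1* libraries averaged 29.0 ± 10.99 CPM and the WT libraries 25.7 ± 9.60 CPM (SD, n = 3 each), and the groups overlapped. The fitted difference was 0.99 ± 0.67 with all libraries (limma, adjusted p = 0.943, 0.701% of all genes called) and 0.17 ± 0.63 without the batch 1 *atfs-1(gk3094)* libraries (limma, adjusted p = 1.0, 0.448% called). The standard errors are too wide to show that the level was unchanged.

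The same mutation was carried into worms with the *atfs-1* deletion in batch 3, where WT worms themselves had little *argk-1* mRNA. The *nuo-6;atfs-1* libraries had 0.193, 0.233 and 0.285 CPM. The *atfs-1(gk3094)* libraries of this batch had 1.61, 1.56 and 1.79 CPM, and the WT libraries had 1.69, 2.13 and 2.73 CPM. The *nuo-6;atfs-1* libraries did not overlap with either group, and their mean was 6.98-fold lower than in *atfs-1(gk3094)* worms and 9.21-fold lower than in WT worms. Against WT worms the fitted log2 difference was -2.67 ± 0.67 (SE, limma, adjusted p = 0.00468), with 15.7% of all genes called. It was -1.85 ± 0.63 (limma, adjusted p = 0.0405, 15.9% called) without the batch 1 *atfs-1(gk3094)* libraries, and leaving out any 1 of the 6 libraries compared then ended the call (adjusted p 0.0664 to 0.11). With a pseudocount of 2 CPM, which is near the WT level itself, the call was also lost (limma, -1.57, adjusted p = 0.0653). The 3 double mutant libraries rest on 34 reads (exact 95% Poisson interval 23.6 to 47.5).

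Against *atfs-1(gk3094)* worms, which differ from *nuo-6;atfs-1* worms by the *nuo-6* mutation, the fitted difference did not pass the test. It was -0.73 ± 0.67 (limma, adjusted p = 0.428) with all libraries, where 28.2% of all genes were called, and -1.55 ± 0.63 (limma, adjusted p = 0.1, 12.8% called) without the batch 1 *atfs-1(gk3094)* libraries. The spread in this fit comes mostly from other groups. With only the 6 libraries compared, whose log2 levels had SDs of 0.09 and 0.08, limma gave -1.55 ± 0.14 with an adjusted p of 3.6e-05. The pseudocount of 0.5 CPM narrows the first of these SDs. The *nuo-6;atfs-1* libraries held 9 to 14 reads each, and their CPM had a coefficient of variation of 19.5%. The exact permutation test over these 3 against 3 libraries gave its smallest possible p of 0.1 (two-sided, adjusted p = 0.2 over 10 comparisons within batches).

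The decrease that went with the *nuo-6* mutation started from different levels in the 2 backgrounds. On the scale used, with its pseudocount of 0.5 CPM, a fall to 0 reads would be -5.80 from the *hif-1* level and only -2.11 from the *atfs-1(gk3094)* level. The fitted differences were -4.67 in *hif-1* worms and -1.55 in *atfs-1(gk3094)* worms, and the first minus the second was -3.12 ± 0.92 (limma with a level for each genotype and batch, adjusted p = 0.0298), where 9.09% of all genes were called. Since the second decrease could not have reached the first on this scale, this value does not show that the response to the mutation differed. The backgrounds lie in different batches with different starting levels, 29.0 CPM in *hif-1* worms and 1.66 CPM in *atfs-1(gk3094)* worms, so background and batch cannot be told apart. In *nuo-6* worms of batch 2 the mean was 0.784 CPM, and in *nuo-6;hif-1* and *nuo-6;atfs-1* worms it was 0.605 and 0.237 CPM. These 3 groups come from 3 batches and are set side by side without a test.

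Libraries of the *atfs-1* deletion stood in 2 batches, and the comparison with WT worms differed between the batches. In batch 1 the *atfs-1(gk3094)* libraries had 1.49, 1.66 and 1.57 CPM, against 32.5, 29.8 and 14.7 CPM in WT libraries, a 16.3-fold lower mean with no overlap. In batch 3 they had 1.61, 1.56 and 1.79 CPM, against 1.69, 2.13 and 2.73 CPM in WT libraries, and the groups overlapped. The mutant level was nearly the same in both batches, 1.57 ± 0.0886 and 1.66 ± 0.119 CPM (SD, n = 3 each), and the WT level was not. Since these mutant libraries were closer in pairs across the batches than replicates were, they may not be independent. Their like levels are then no separate result. The log2 difference was -3.58 ± 0.61 in batch 1 (limma with a level for each genotype and batch, adjusted p = 9.27e-05, 31.8% of all genes called). In batch 3 it was -0.30 ± 0.61 (adjusted p = 1.0, 0.188% of all genes called). The difference between batches, batch 3 minus batch 1, was 3.28 ± 0.86 (limma, adjusted p = 0.0476), with 1.19% of all genes called. From the WT level of batch 3 the scale allows a decrease of at most -2.41, so part of this difference was fixed by the low WT level. The WT libraries alone differed by -3.23, batch 3 minus batch 1, so the value is close to the WT difference with its sign turned. Within the pairs of batch 3 libraries that share a label, *atfs-1(gk3094)* was lower in 3 of 3, and with the label as a block the difference was -0.30 ± 0.50 (limma, without the batch 1 *atfs-1(gk3094)* libraries, adjusted p = 1.0). The joint estimate over both batches, -1.94 ± 0.50 (limma, adjusted p = 0.0143, 8.56% of all genes called), averages 2 unlike values, and without the batch 1 *atfs-1(gk3094)* libraries 0.159% of all genes were called. It lost the call without WT replicate 1 (adjusted p = 0.0664) or 2 (0.075) of batch 1, and without *atfs-1(gk3094)* replicate 1 (0.052), 2 (0.0588) or 3 (0.0578) of batch 1. The batch 1 *atfs-1(gk3094)* libraries are those that resemble the batch 3 libraries, and whether they were made or sequenced with batch 1 was not tested.

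**Figure D2:**
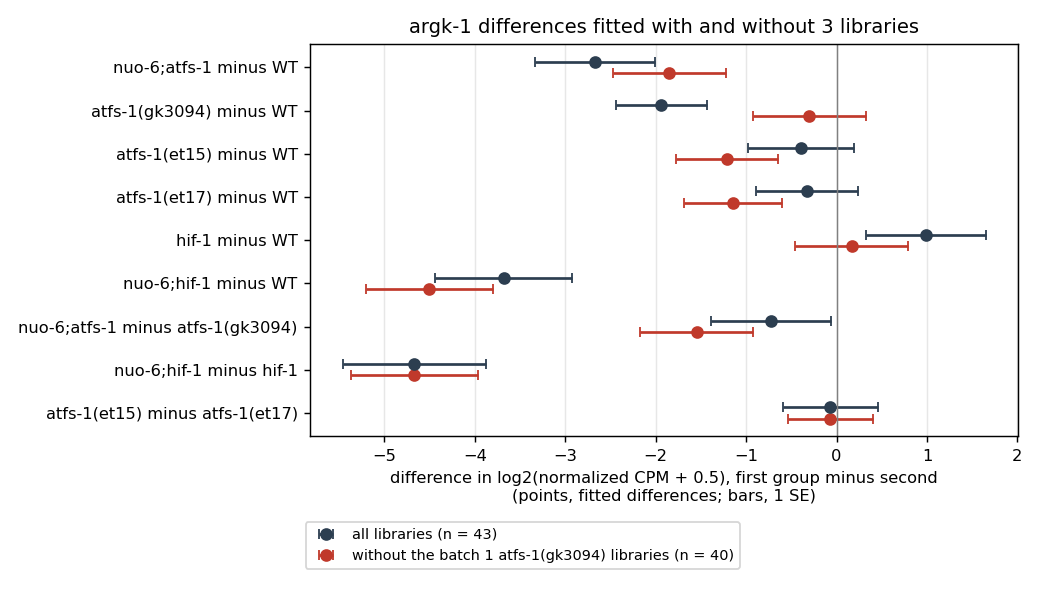
Fitted differences of *argk-1* in log2(normalized CPM + 0.5) for 9 comparisons, first group minus second, with all 43 libraries and without the 3 batch 1 *atfs-1(gk3094)* libraries. Points are limma estimates and bars are 1 SE. The *nuo-6;hif-1* differences lie at -3.68 or below in both fits, and the *atfs-1(gk3094)* difference is -1.94 in one and -0.30 in the other.

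In the gain-of-function mutants *argk-1* had about 2-fold lower means than in WT worms, within overlapping ranges. The *atfs-1(et15)* libraries had 7.65, 10.9, 18.7, 7.90 and 8.83 CPM, and 4 of 5 lay below the lowest WT library of the batch, at 14.7 CPM. The *atfs-1(et17)* libraries had 2.44 CPM at the lowest, 13.1 at the median and 19.7 at the highest, and 4 of 6 lay below the lowest WT library. Against WT worms the fitted difference was -0.39 ± 0.58 for *atfs-1(et15)* worms (limma, adjusted p = 0.599, 45.8% of all genes called) and -0.33 ± 0.56 for *atfs-1(et17)* worms (limma, adjusted p = 0.77, 6.83% called). Without the batch 1 *atfs-1(gk3094)* libraries these were -1.21 ± 0.56 (adjusted p = 0.0958, 31.4% called) and -1.15 ± 0.54 (adjusted p = 0.35, 3.66% called). With only the *atfs-1(et15)* and WT libraries of batch 1 in the fit, the *atfs-1(et15)* difference passed (limma, adjusted p = 0.0331). The 2 gain-of-function alleles differed from each other by -0.07 ± 0.53, *atfs-1(et15)* minus *atfs-1(et17)* (limma, adjusted p = 0.946, 10.8% of all genes called and 9.42% without those libraries), and this standard error does not show that they act alike.

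Within batch 1 the means stood in the order *hif-1* (29.0 CPM), WT (25.7), *atfs-1(et17)* (12.7), *atfs-1(et15)* (10.8), *atfs-1(gk3094)* (1.57) and *nuo-6;hif-1* (0.605). The neighbours *hif-1* and WT overlapped, as did WT and *atfs-1(et17)*, and *atfs-1(et17)* and *atfs-1(et15)*. The groups from *atfs-1(et15)* down did not overlap with their neighbours. The batch 1 *atfs-1(gk3094)* libraries resemble those of batch 3, which averaged 1.66 CPM. Whether genotype or batch set their place in this order was not tested. Within batch 3 the order was WT (2.18 CPM), *atfs-1(gk3094)* (1.66) and *nuo-6;atfs-1* (0.237), of which only the first pair overlapped. Exact permutation tests within batches gave adjusted p of 0.2 or more in all 10 comparisons. Of these, 5 had 3 against 3 libraries, a design in which p cannot go below 0.1. Another 2 had 2 against 3, where the two-sided p cannot go below 0.2, the value that both gave.

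The arginine kinase list held 5 genes, all of them measured, and *argk-1* was not the most abundant. *F46H5.3* was the main member. Per kilobase of exon, which allows levels of different genes to be compared, it averaged 2355 ± 199 CPM in *nuo-6* worms and 1414 ± 192 in WT worms of batch 2 (SD, n = 6 each). *argk-1* had 0.646 ± 0.368 CPM per kilobase in *nuo-6* worms and 138 ± 94.8 in WT worms. Of the summed family level per kilobase, *argk-1* made up 0.0232% in *nuo-6* worms and 7.34% in WT worms of that batch. In WT worms its share was 1.36% in batch 1 and 0.211% in batch 3, and in WT replicate 7 of batch 2 it reached 13.1%. *ZC434.8* was second in every group, at 229 CPM per kilobase in *nuo-6* worms and 173 in WT worms of batch 2, and *F32B5.1* had 9.35 and 11.7 in these groups.

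**Figure D3:**
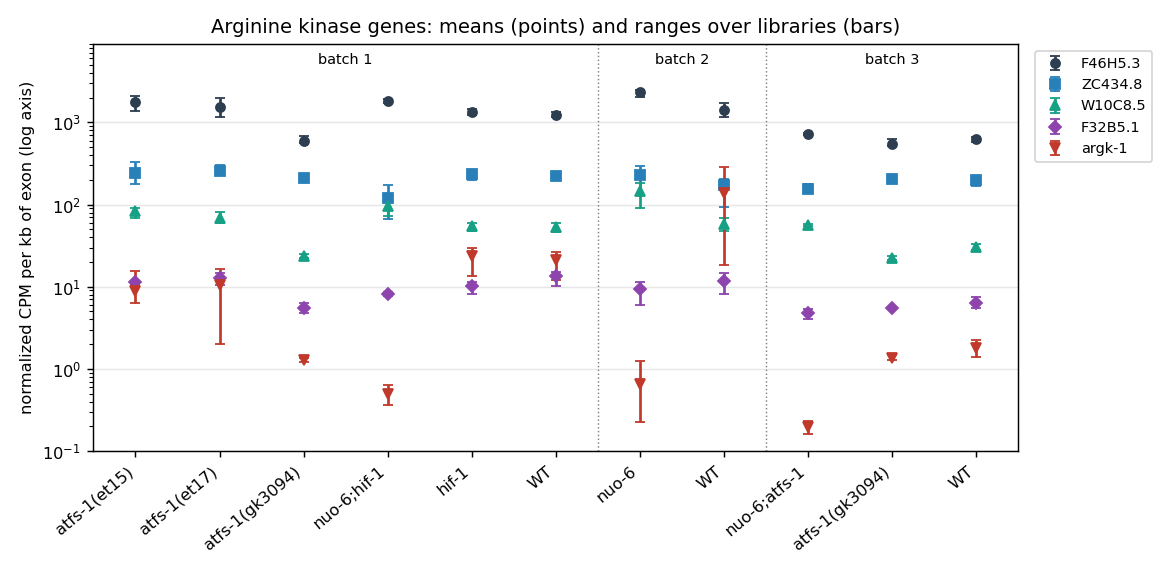
Normalized CPM per kilobase of exon (log axis) of the 5 genes of the arginine kinase list by genotype and batch, with WT on the right of each batch. Points are means and bars span the lowest to the highest library. *F46H5.3* is the highest in every group, and *argk-1* is the lowest in every group except *hif-1* and the WT worms of batches 1 and 2, where its means are 23.9, 21.2 and 138.

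In *nuo-6* worms 3 of the 4 relatives, *ZC434.8* among them, had higher means while *argk-1* was lower, given here as values of the contrast that chose the gene and with no test. *W10C8.5* averaged 196 ± 49.5 CPM in *nuo-6* worms and 78.7 ± 9.52 in WT worms, and *F46H5.3* averaged 3443 ± 292 and 2068 ± 281 CPM in these groups (SD, n = 6 each). In *nuo-6;hif-1* worms, 2 of the 5 family members rose and 2 fell, where 32.4% of all genes rose and 28.7% fell. *W10C8.5* was higher than in WT worms by 0.99 ± 0.21 (limma, adjusted p = 0.000185) and *F46H5.3* by 0.77 ± 0.19 (limma, adjusted p = 0.00101). *ZC434.8* was lower by -1.02 ± 0.28 (limma, adjusted p = 0.00246), but with the maturity index as a covariate this was 0.08 (limma, adjusted p = 0.907), and without *nuo-6;hif-1* replicate 2 it was -0.35 (adjusted p = 0.381). With that index *F46H5.3* sat at the threshold (adjusted p = 0.0501), and *W10C8.5* lost its call with only the groups compared (adjusted p = 0.0535). As given above, index and genotype were poorly separated in this comparison. Without the batch 1 *atfs-1(gk3094)* libraries *F32B5.1* also fell (-0.68 ± 0.23, adjusted p = 0.0115).

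In *nuo-6;atfs-1* worms *W10C8.5* rose while *argk-1* fell, in a comparison in which 10.2% of all genes rose and 5.43% fell. The 3 *nuo-6;atfs-1* libraries averaged 75.4 ± 2.82 CPM of *W10C8.5*, against 40.3 ± 3.83 in WT worms of the batch (SD, n = 3 each), a difference of 0.71 ± 0.18 (limma, adjusted p = 0.00628) that was 0.90 ± 0.18 without the batch 1 *atfs-1(gk3094)* libraries (adjusted p = 0.000751) and lost its call with no batch term (0.22, adjusted p = 0.45). Against *atfs-1(gk3094)* worms it rose by 1.51 ± 0.18 (limma, adjusted p = 1.7e-07), or 1.32 ± 0.18 without those libraries (adjusted p = 4.59e-06). *F46H5.3* did not pass against WT worms (-0.01 ± 0.17, adjusted p = 0.986), and *F32B5.1* lost its call without the batch 1 *atfs-1(gk3094)* libraries (-0.40 ± 0.20, adjusted p = 0.18).

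In *atfs-1(et15)* worms *F46H5.3* and *W10C8.5* rose by 0.71 ± 0.15 (limma, adjusted p = 0.000294) and 0.83 ± 0.16 (adjusted p = 0.000125), 2 of 5 members where 21.4% of all genes rose, and both kept the call without the batch 1 *atfs-1(gk3094)* libraries (adjusted p = 0.00731 and 0.00342). With only the groups compared *F46H5.3* lost it (adjusted p = 0.0771). In *atfs-1(et17)* worms the same 2 members rose by 0.52 ± 0.14 (adjusted p = 0.0194) and 0.54 ± 0.16 (adjusted p = 0.0246), where 3.84% of all genes rose, but neither call held without those libraries (adjusted p = 0.299 and 0.297). In *atfs-1(gk3094)* worms 4 of 5 members, *argk-1* among them, fell in the joint fit, where 6.52% of all genes fell, and 0 of 5 did so without the batch 1 *atfs-1(gk3094)* libraries. Over the family the median log2 difference from WT worms was -0.72 in the first fit and -0.21 in the second, and over all genes it was 0.08 and 0.04. No family member passed in *hif-1* worms.

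Genes of energy sensing and of arginine use were followed as lists, counted here against WT worms with all 43 libraries. The catalytic and regulatory subunits of AMP-activated kinase and its upstream kinase made up a list of 11. In *nuo-6;hif-1* worms 6 of them rose and 1 fell, where 32.4% of all genes rose and 28.7% fell, with a median log2 difference of 0.47 (0.04 over all genes). Without the batch 1 *atfs-1(gk3094)* libraries 4 rose and 1 fell, and over all settings 1 to 9 of the 11 were called. *aakg-4*, a gamma subunit, rose by 1.83 ± 0.34 (limma, adjusted p = 4.55e-05), *aakb-1*, a beta subunit, rose by 1.03 ± 0.20 (adjusted p = 7.99e-05), and *par-4*, the worm LKB1 kinase, fell by 1.03 ± 0.18 (adjusted p = 2.4e-05). In *nuo-6;atfs-1* worms 1 of 11 rose and 0 fell, close to the 10.2% of all genes that rose. In *atfs-1(et15)* worms 3 rose and 2 fell, where 21.4% and 24.4% of all genes did so. In *atfs-1(et17)* worms 0 rose and 1 fell, and in *atfs-1(gk3094)* and *hif-1* worms 0 of 11 passed, where 6.83%, 8.56% and 0.701% of all genes were called. Of 7 genes of the TOR and S6 kinase pathway, 1 rose and 6 fell in *atfs-1(et15)* worms, where 24.4% of all genes fell. Of these, *daf-15*, the worm Raptor, fell by 0.68 ± 0.19 (limma, adjusted p = 0.0035). Without the batch 1 *atfs-1(gk3094)* libraries 1 rose and 3 fell, and over all settings 0 to 7 were called. In *nuo-6;hif-1* worms 2 of the 7 fell, a share near the 28.7% of all genes that fell and so no result about the list. Of these *ragc-1*, a Rag GTPase, fell by 0.99 ± 0.18 (limma, adjusted p = 2.83e-05).

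Of 7 tested adenylate kinase and ATP/ADP carrier genes, which handle the same nucleotides, 2 rose and 0 fell in *nuo-6;atfs-1* worms, where 10.2% of all genes rose. In *atfs-1(gk3094)* worms 0 rose and 2 fell, where 6.52% of all genes fell, and 0 fell without the batch 1 *atfs-1(gk3094)* libraries. In *nuo-6;hif-1* worms 1 rose and 1 fell, where 32.4% and 28.7% of all genes did so. In *nuo-6;atfs-1* worms *F38B2.4*, an adenylate kinase, was higher than in *atfs-1(gk3094)* worms by 0.87 ± 0.16 (limma, adjusted p = 0.000175). Of 8 genes of arginine, proline and polyamine metabolism, 3 rose and 0 fell in *nuo-6;hif-1* worms, a share near the 32.4% of all genes that rose, and over all settings 0 to 5 were called. Against *hif-1* worms 3 also rose and 0 fell, where 27.5% of all genes rose and 23.2% fell. *odc-1*, ornithine decarboxylase, was higher than in *hif-1* worms by 2.32 ± 0.56 (limma, adjusted p = 0.00104) and *M153.1*, a pyrroline-5-carboxylate reductase, by 1.73 ± 0.48 (limma, adjusted p = 0.0035). Markers of glia, cells in which ARGK-1 has been seen in worms, were counted against WT worms in all groups except *nuo-6*. In *nuo-6;hif-1* worms 7 of 9 rose and 0 fell, where 32.4% of all genes rose, and in *nuo-6;atfs-1* worms 3 rose and 0 fell, where 10.2% rose. Without the batch 1 *atfs-1(gk3094)* libraries 5 and 6 rose in these groups and 0 fell, where 54.4% and 15.9% of all genes were called. Without the *nuo-6* mutation, 6 rose and 0 fell in *atfs-1(et15)* worms, where 21.4% of all genes rose. There 5 rose and 1 fell without the batch 1 *atfs-1(gk3094)* libraries, where 31.4% of all genes were called. In *atfs-1(et17)* worms 0 rose and 0 fell, where 6.83% of all genes were called. In *atfs-1(gk3094)* worms 1 rose and 1 fell, and in *hif-1* worms 0 rose and 1 fell, where 8.56% and 0.701% of all genes were called. Without the batch 1 *atfs-1(gk3094)* libraries 0 rose and 0 fell in *atfs-1(gk3094)* worms, where 0.159% were called. In *nuo-6* worms the summed level was 129 to 288 CPM, against 161 to 277 CPM in WT worms of that batch. The part of glia in the level of *argk-1* was not tested. The summed level of 9 glial genes was 319 to 326 CPM in *nuo-6;hif-1* libraries, against 146 to 197 in WT libraries of that batch, and none of the 9 was at 0 in every library of a group. With the maturity index as a covariate, the comparison of *nuo-6;hif-1* with WT worms called 1298 genes, against 8461 without it, so these counts move with the markers of maturity, whose part in them was not tested.

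The gene whose pattern was most like that of *argk-1* was its upstream neighbour *cth-1*, a cystathionine gamma-lyase of cysteine synthesis. Likeness was the Pearson correlation over 43 libraries of log2 levels, each set against the WT mean of its batch, and it was ranked over the 13646 other genes that averaged 1 CPM or more. These libraries share batches and genotypes, and r is a description. *cth-1* had r = 0.96 over all libraries, 0.99 over the 12 WT libraries and 0.92 without the *nuo-6* libraries. The next were *clec-258* (0.92), a C-type lectin, *dot-1.3* (0.89), annotated as a histone methyltransferase, *H20E11.2* (0.88) and *F22B8.4* (0.85). The *nuo-6* libraries that chose the gene enter this ranking, and without them these 4 had r of 0.76, 0.80, 0.63 and 0.58. Over the 12 WT libraries they had 0.95, 0.51, 0.94 and 0.94. The 6 WT libraries of batch 2, which also entered the choice of the gene, stay in both sets of values. Over those 6 alone *cth-1* had r = 0.99 and these 4 had 0.95, 0.54, 0.95 and 0.95. The most opposite were *ethe-1* (-0.91), the worm homologue of the human persulfide dioxygenase ETHE1, *ztf-17* (-0.89), a zinc finger gene, and *haf-1* (-0.89), a peptide transporter of the mitochondrial inner membrane. Without the *nuo-6* libraries these 3 had r of -0.75, -0.69 and -0.72, and over the 12 WT libraries -0.61, -0.62 and -0.24.

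*cth-1* lies at 16100680 to 16102750 on the same strand of chromosome V and ends 1143 bases before *argk-1* starts. It had 13.5, 13.9, 7.99, 15.5, 17.01 and 20.1 CPM in *nuo-6* libraries, against 215, 118, 239, 361, 264 and 41.7 CPM in the WT libraries of the batch, in replicate order. The WT library with the highest *argk-1*, replicate 7, also had the highest *cth-1*, and replicate 9 had the lowest of both. In *nuo-6;hif-1* libraries *cth-1* had 8.73 and 17.1 CPM, against 99.8, 82.7 and 50.05 CPM in WT libraries. In *nuo-6;atfs-1* libraries it had 11.5, 11.2 and 14.5 CPM, against 19.4, 23.2 and 22.6 CPM in WT libraries. *cth-1* kept to a narrower range than *argk-1*: the 12 WT libraries spanned 18.6-fold for *cth-1* and 204-fold for *argk-1*. The ratio of *argk-1* to *cth-1* CPM was 0.0309 to 0.097 in *nuo-6* libraries and 0.501 to 0.955 in WT libraries of batch 2. It was 0.294 to 0.361 in WT libraries of batch 1 and 0.0872 to 0.121 in those of batch 3, which overlapped with the *nuo-6* range. In *nuo-6;hif-1* and *hif-1* libraries it was 0.0447 to 0.0510 and 0.520 to 0.559, outside the WT range of batch 1. In *nuo-6;atfs-1* libraries it was 0.0169 to 0.0208, below the WT range of batch 3. Both gain-of-function ranges overlapped with WT libraries, as did *atfs-1(gk3094)* in batch 3 (0.0808 to 0.0874) but not in batch 1 (0.0711 to 0.0787).

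**Figure D4:**
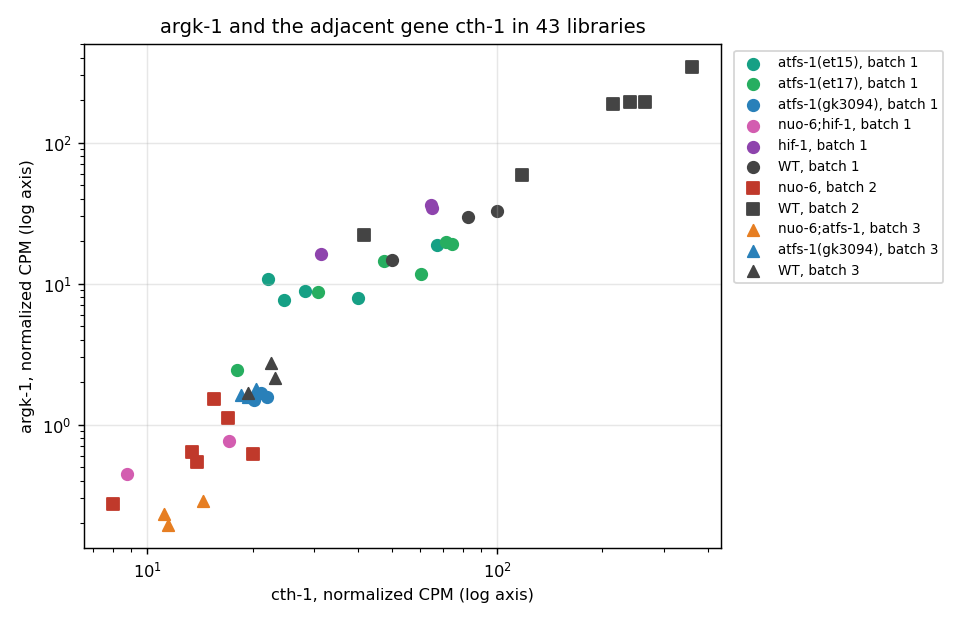
Normalized CPM of *argk-1* against that of *cth-1*, the next gene upstream, in 43 libraries (both axes logarithmic). Colours are genotypes and symbols are batches. *argk-1* tends to be higher where *cth-1* is higher, but the points spread widely, with a ratio of *argk-1* to *cth-1* from 0.0169 to 0.955. Libraries carrying the *nuo-6* mutation lie near the low end. Batch 2 WT libraries, up to 345 CPM of *argk-1* and 361 CPM of *cth-1*, reach the high end.

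The likeness reached beyond *cth-1* on the upstream side, in a survey of 27 tested genes within 100000 bases that was added after the values were seen. The 4 nearest tested genes upstream, *cth-1*, *str-7* (a chemoreceptor gene, 4352 bases away), *F22B8.7* (6573 bases) and *F22B8.4* (15676 bases), had r of 0.99, 0.94, 0.96 and 0.94 with *argk-1* over the 12 WT libraries. Over all 43 libraries they had 0.96, 0.88, 0.60 and 0.85. The 12 WT libraries include the 6 of batch 2, which entered the choice of the gene. *F22B8.7* averaged 23.7 ± 3.14 CPM in *nuo-6* worms and 46.2 ± 23.5 CPM in WT worms (SD, n = 6 each), and those ranges overlapped. *str-7* averaged 0.101 ± 0.0881 CPM in *nuo-6* worms and 3.73 ± 2.21 CPM in WT worms. The nearest tested gene downstream, *skr-3* (15131 bases), had r = -0.56, and the median over the 27 genes was 0.23, where the median of all genes was 0.02.

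**Figure D5:**
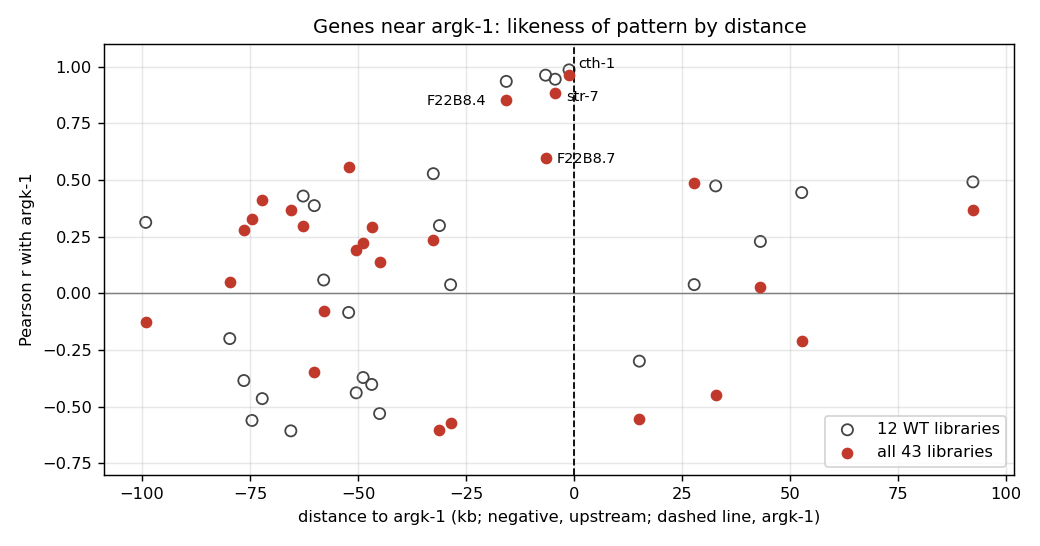
Pearson r with *argk-1* of the 27 tested genes within 100 kb on either side, by distance in kb (negative values are upstream), over all 43 libraries (filled) and over the 12 WT libraries (open). The 4 upstream genes within 16 kb have r of 0.94 to 0.99 over the WT libraries, and the other genes of the window lie lower.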

How the data were processed

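RNA of whole worms was sequenced from stranded mRNA libraries. The authors aligned reads to WBcel235 with STAR 2.5.2b and counted reads per gene. They deposited CPM for 46739 genes and a filtered, normalized table of 13837 genes, treated here as a signal because each library's deposited values are its CPM times a constant. Whole reads were recovered from the CPM (100.0% of values within 0.01 reads) for edgeR and DESeq2 only.

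Differences of log2(normalized CPM + 0.5) were fitted over all genes with limma 3.58.1 (trend, empirical Bayes, in R 4.3.3), with genotype and additive batch, and called at a Benjamini-Hochberg adjusted p under 0.05. RNA was isolated separately for each replicate, per the study's methods. The batch 1 and batch 3 *atfs-1(gk3094)* libraries were closer in pairs than replicates were, so they may not be independent, and n = 6 in the joint fit may count samples more than once. Per the series' design text, 1 *nuo-6;hif-1* and 1 *atfs-1(et15)* replicate had been removed, and these are not analysed here. Labels b, bl and r paired the batch 3 WT and *atfs-1(gk3094)* libraries (r of same-labelled deviations 0.45 to 0.69) and no other groups. The gene, the lists and the comparisons were chosen with earlier results of these data known. Named list genes are called members with the largest differences, at most 3 a list, and patterns are the 5 most and 3 least alike. Alternatives were other pseudocounts, scalings, filters, batch terms, a replicate block, edgeR 4.0.16, DESeq2 1.42.0, only the groups compared, a maturity index (first component of 67 yolk, oocyte, sperm and molting genes in WT) and leaving out each library. Fits without the batch 1 *atfs-1(gk3094)* libraries were added after seeing the data. The fit was tested on simulated data. Python 3.11.15 with scipy 1.17.1 was used for exact tests. Positions and exon lengths were read from the WBcel235 annotation.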

Additional observations from a re-analysis of the deposited data

Results flagged for a closer look

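In *atfs-1(et15)* worms, replicate 4 stood apart with 18.7 CPM of *argk-1*, where the other 4 libraries had 7.65 to 10.9 CPM, and its gap just passed the limit for an outlying sample of 5. In WT worms of batch 2, replicate 7 had the lowest *ZC434.8*, 109 CPM, and it was the library with the highest *argk-1* (345 CPM) and the highest molting genes (3651 CPM summed). Chance marks about 1 in 20 groups in this way, and 20 groups were examined.

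The difference of *atfs-1(gk3094)* from WT worms was less negative in batch 3 than in batch 1 by 3.28 on the log2 scale (limma, adjusted p = 0.0476). From the WT level of batch 3 the scale allows at most -2.41, and the *atfs-1(gk3094)* libraries of the 2 batches may not be independent. The difference that went with *nuo-6* was more negative in *hif-1* worms than in *atfs-1(gk3094)* worms by a log2 difference of -3.12 (limma, adjusted p = 0.0298), with batch and background not separable. From the low *atfs-1(gk3094)* level the scale allows a decrease of at most -2.11, so this value does not show a different response.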

How the results depend on the processing

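For *argk-1*, the calls in *nuo-6;hif-1* worms against WT and *hif-1* worms held under every alternative run. A pseudocount of 2 CPM ended the call in *nuo-6;atfs-1* worms (-1.57). The *atfs-1(gk3094)* call ended without the batch 1 *atfs-1(gk3094)* libraries with limma or the replicate block (-0.30), edgeR (-0.46) or the maturity index (-0.41). *atfs-1(et15)* against WT passed with only the groups compared (-1.21) and with the block but without those libraries (-1.50). Labels did not pair these groups (r of same-labelled deviations -0.21 to 0.27), so that block is arbitrary for them. *nuo-6;atfs-1* against *atfs-1(gk3094)* passed with DESeq2 (-2.19), with only the groups compared (-1.55), and without the batch 1 *atfs-1(gk3094)* libraries with edgeR (-2.73) or the block (-1.55). Labels did not pair these groups throughout either (r -0.34 to 0.74). The *hif-1* difference turned to -0.18 with no batch term. The *nuo-6* difference, which has no test, was -5.50 with a pseudocount of 2 CPM, -4.69 with no batch term and -7.75 with DESeq2.

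Leaving out each library gave -3.03 to -2.53 for *nuo-6;atfs-1*, -2.18 to -1.67 for *atfs-1(gk3094)*, -0.60 to 0.0182 for *atfs-1(et15)*, -0.50 to 0.0851 for *atfs-1(et17)*, 0.79 to 1.398 for *hif-1*, -3.89 to -3.27 for *nuo-6;hif-1* and -7.13 to -6.34 for *nuo-6*, all against WT. It gave -0.83 to -0.42 for *nuo-6;atfs-1* against *atfs-1(gk3094)*, -5.03 to -4.46 for *nuo-6;hif-1* against *hif-1* and -0.45 to 0.10 between the gain-of-function alleles. The *atfs-1(gk3094)* call ended without WT replicate 1 (-1.67) or 2 (-1.69) or *atfs-1(gk3094)* replicate 1 (-1.74), 2 (-1.77) or 3 (-1.76) of batch 1. Uncalled differences changed sign for *atfs-1(et15)* without WT replicate 1 (0.0182), for *atfs-1(et17)* without WT replicate 1 (0.0851) or 2 (0.0444) or *atfs-1(et17)* replicate 2 (0.0595), and between these alleles without *atfs-1(et15)* replicates 2 (0.0309) or 5 (0.0198) or *atfs-1(et17)* replicates 3 (0.0936), 4 (0.103) or 6 (0.0184). With all libraries the replicate block changed no call (*atfs-1(gk3094)* -1.94, adjusted p = 0.0169, limma). *ZC434.8* in *nuo-6;hif-1* worms turned to 0.0813 with the maturity index, and to 0.11 with it and without the batch 1 *atfs-1(gk3094)* libraries. The causes were not tested.

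Over all settings, genes called ranged from 22 to 6903 for *atfs-1(gk3094)*, 1298 to 10792 for *nuo-6;hif-1*, 1639 to 7277 for *atfs-1(et15)*, 1263 to 4380 for *nuo-6;atfs-1*, 407 to 2011 for *atfs-1(et17)* and 16 to 173 for *hif-1*, all against WT, where all libraries gave 1184, 8461, 6341, 2168, 945 and 97. At 5 to 35 reads a library, counting error limits the *nuo-6* levels.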
